A study of Mus musculus with 11 samples.

Results

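Transcripts of 7 genes of active DNA demethylation were followed in mouse embryonic stem (ES) cells with and without DNA methyltransferases. The 7 genes were the oxidases Tet1, Tet2 and Tet3, the glycosylase Tdg, and the repair genes Apex1, Parp1 and Xrcc1. They were taken by symbol from a deposited table of 24016 genes, and all 7 were among the 14229 genes that reached 1 RPKM (reads per kilobase of transcript, scaled to library size) in at least 1 library.

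Methylation of cytosine is written by Dnmt3a and Dnmt3b and copied to the new strand by Dnmt1. It can be removed actively: Tet enzymes oxidise 5-methylcytosine stepwise, by way of the hydroxymethyl form, Tdg cuts out the formyl and carboxyl forms, Apex1 nicks the strand at the empty site, Parp1 senses the break, and Xrcc1 holds the gap-filling and ligating enzymes in place. Tet1 and Tet2 are the Tet enzymes of ES cells, while Tet3 is best known from the oocyte and the zygote.

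RNA-seq of polyA RNA had been done on 11 libraries of ES cells of strain 129S4/SvJae, all kept in serum and LIF over a layer of irradiated embryonic fibroblasts. In the TKO line Dnmt1, Dnmt3a and Dnmt3b had been knocked out, and in the DKO line Dnmt3a and Dnmt3b had been knocked out with Dnmt1 kept. In 6 further lines 1 enzyme had been put back, giving TKO+Dnmt3a1 and TKO+Dnmt3a2 (2 libraries each), TKO+Dnmt3b1, DKO+Dnmt3a1, DKO+Dnmt3a2 and DKO+Dnmt3b1 (1 library each). The wild-type (WT) line was J1, and WT, TKO and DKO had 1 library each. Dnmt3a1 is the longer isoform of Dnmt3a and Dnmt3a2 the shorter, and TKO family and DKO family are used below for a parent line together with the lines made from it. Each genotype was 1 line, so that a difference between genotypes and one between clones cannot be told apart. Whether paired libraries of 1 line stem from different cultures is not stated in the labels. In comparisons with WT and between TKO+Dnmt3a1 and TKO+Dnmt3a2, p-values measure only the spread between such libraries. In comparisons over both families, the spread also includes how far lines depart from added effects of family and enzyme. The samples were bulk RNA, in which fewer cells of a type and less RNA per cell cannot be told apart.

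Since the lines differ in the enzymes that methylate CG dinucleotides, the promoters of the members are shown by their CG content. RefSeq sequences on GRCm38.p6, from 250 bases before to 50 after the gene start, were found for 7 of 7 members. The 3 Tet promoters and that of Xrcc1 follow, 5′ to 3′ on the gene's strand with each CG in capitals. Xrcc1 had the fewest CG of the 7. They lie at chr10:62887275-62887574 (Tet1, minus strand), chr3:133544341-133544640 (Tet2, minus), chr6:83441629-83441928 (Tet3, minus) and chr7:24546449-24546748 (Xrcc1, plus).
Tet1: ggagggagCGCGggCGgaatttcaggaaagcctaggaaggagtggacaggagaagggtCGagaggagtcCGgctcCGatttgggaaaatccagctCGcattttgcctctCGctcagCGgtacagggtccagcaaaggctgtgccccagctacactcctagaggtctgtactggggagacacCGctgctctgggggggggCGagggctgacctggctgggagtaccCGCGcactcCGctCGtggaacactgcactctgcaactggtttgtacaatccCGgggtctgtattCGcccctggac
Tet2: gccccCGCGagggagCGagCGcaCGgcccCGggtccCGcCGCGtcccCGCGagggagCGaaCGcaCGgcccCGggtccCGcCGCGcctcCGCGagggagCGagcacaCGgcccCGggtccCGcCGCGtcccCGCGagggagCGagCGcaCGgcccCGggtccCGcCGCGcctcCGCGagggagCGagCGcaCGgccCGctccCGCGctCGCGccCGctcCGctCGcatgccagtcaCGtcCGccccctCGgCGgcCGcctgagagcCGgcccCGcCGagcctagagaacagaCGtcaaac
Tet3: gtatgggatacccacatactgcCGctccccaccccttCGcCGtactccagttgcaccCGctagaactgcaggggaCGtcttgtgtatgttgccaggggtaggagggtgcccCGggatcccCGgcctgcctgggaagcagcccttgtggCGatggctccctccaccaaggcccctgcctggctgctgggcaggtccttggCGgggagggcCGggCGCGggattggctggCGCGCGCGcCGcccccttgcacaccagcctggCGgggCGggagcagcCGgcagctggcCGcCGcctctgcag
Xrcc1: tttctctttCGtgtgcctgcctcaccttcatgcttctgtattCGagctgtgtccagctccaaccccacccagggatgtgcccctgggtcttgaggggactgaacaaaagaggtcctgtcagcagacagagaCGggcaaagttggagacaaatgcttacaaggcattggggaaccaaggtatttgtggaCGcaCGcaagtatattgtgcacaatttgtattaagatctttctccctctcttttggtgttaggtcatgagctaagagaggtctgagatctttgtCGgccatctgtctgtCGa

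The Tet2 promoter held 57 CG in 300 bases, more than 99.8% of the 32851 promoters in the table. Its 22-base word cacggccccgggtcccgccgcg stood 4 times, and no word of 10 or more bases stood 4 times in the promoters of the other 6 members. Tet1 held 17, Tet3 22 and Xrcc1 7, the last equal to the median of 7 over all promoters, of which 94.6% held at least 1 CG. Tdg had 26, Apex1 31 and Parp1 20. The letters CACGTG, a palindrome that reads the same on both strands and contains a CG, were searched as well. This motif stood 3 times in the Apex1 promoter, 1 time each in those of Tdg and Parp1, and not in the windows of the other 4. At least 1 match was held by 7.2% of all promoters and at least 3 by 0.09%. The Apex1 promoter is shown because of these matches, in capitals, at chr14:50924699-50924998 on the plus strand.
Apex1: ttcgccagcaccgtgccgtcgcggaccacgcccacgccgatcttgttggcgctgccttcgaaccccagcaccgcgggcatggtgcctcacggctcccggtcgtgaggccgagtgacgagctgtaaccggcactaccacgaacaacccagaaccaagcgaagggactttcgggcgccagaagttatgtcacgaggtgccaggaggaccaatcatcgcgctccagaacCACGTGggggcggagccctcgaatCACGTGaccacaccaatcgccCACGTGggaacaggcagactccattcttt

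The libraries held an estimated 21.7 to 32.7 M reads. Dnmt1 transcripts ranged over 6.73 to 12.4 RPKM across the TKO family, over 55.9 to 74.5 RPKM across the DKO family, and reached 71.0 RPKM in WT. Dnmt3a lay at 4.24 RPKM in TKO and 3.63 RPKM in DKO, against 22.7 RPKM in WT. Dnmt3b lay at 45.3 RPKM in TKO and 5.68 RPKM in DKO, against 25.0 RPKM in WT, so that the total transcript of Dnmt3b does not check the TKO genotype. The Y-linked gene Uba1y did not exceed 0.019 RPKM in WT or any TKO family library, while its lowest DKO family value was 5.42 RPKM. All 10 ES cell markers examined were above 1 RPKM in all 11 libraries. Fibroblast markers stood apart in the Dnmt3b1 libraries: 20 such genes summed to 2757 RPKM in TKO+Dnmt3b1 and 2101 RPKM in DKO+Dnmt3b1. The sum was 245.5 RPKM in DKO+Dnmt3a2, and the remaining 8 libraries held 528 to 1086 RPKM. The 15 macrophage markers summed to 309.8 RPKM in TKO+Dnmt3b1 and 282.5 RPKM in DKO+Dnmt3b1, and to 12.4 RPKM in DKO+Dnmt3a2 with 8 of 15 listed at 0. The remaining 8 libraries held 40.9 to 114 RPKM.

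**Figure D1:**
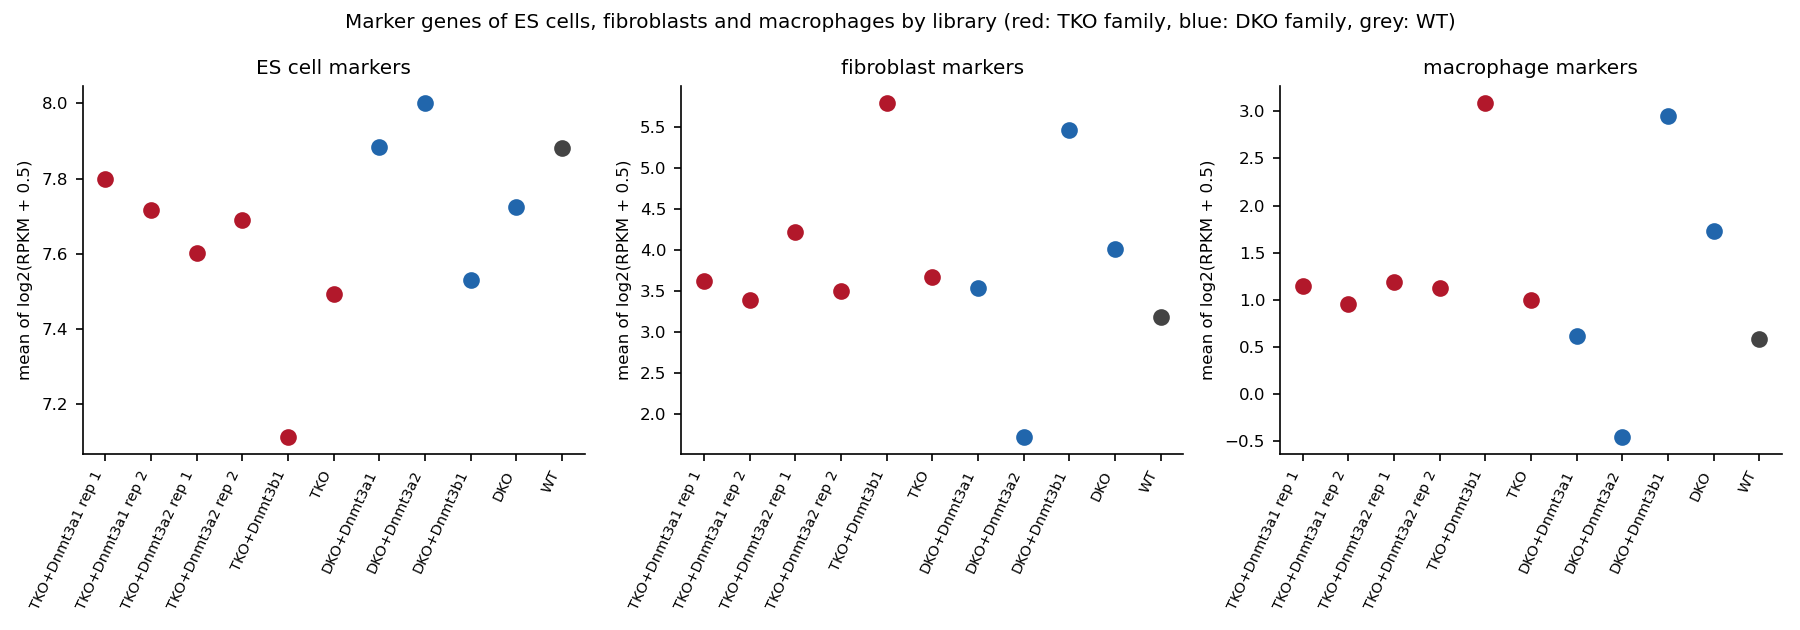
Mean log2(RPKM + 0.5) of 10 ES cell, 20 fibroblast and 15 macrophage markers (y axes, each with its own range and not starting at 0), with 1 point per library along the x axis. TKO+Dnmt3b1 and DKO+Dnmt3b1 have the highest fibroblast means, 5.79 and 5.46, and DKO+Dnmt3a2 has the lowest, 1.72.

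Tet1 was the most abundant of the oxidases in each of the 11 libraries, with Tet2 next and Tet3 last, on the RPKM scale, which is per transcript length. Of the summed RPKM of the 3 genes, Tet1 made up 70.0% in TKO and 79.5% in DKO, against 66.0% in WT. Tet2 made up 23.9% in TKO and 17.3% in DKO, against 31.1% in WT, and Tet3 made up 2.68% to 6.81% over all libraries. The ratio of Tet1 to Tet2 was 4.58 in DKO and 2.92 in TKO, against 2.12 in WT, the lowest of the 11. One value per gene cannot separate isoforms, among them the long and short forms of Tet1 and of Tet3.

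Tet1 had 44.9 RPKM in TKO and 42.7 RPKM in DKO, against 44.0 RPKM in WT. With an enzyme put back into TKO it had 37.2 and 43.1 RPKM (Dnmt3a1), 38.4 and 37.0 RPKM (Dnmt3a2) and 31.5 RPKM (Dnmt3b1). With an enzyme put back into DKO it had 54.3 RPKM (Dnmt3a1), 57.6 RPKM (Dnmt3a2) and 45.3 RPKM (Dnmt3b1). Every TKO add-back library lay below TKO, as was the case for 20.6% of genes tested. Every DKO add-back library lay above DKO, as for 31.9% of genes tested. The 2 TKO+Dnmt3a1 libraries differed by 0.21 and the 2 TKO+Dnmt3a2 libraries by 0.05 on the log2 scale. Of the 8 steps between neighbouring groups in the order of Tet1 levels, 2 were larger than the wider of these gaps: that from TKO+Dnmt3b1, the lowest, to TKO+Dnmt3a2, and that from DKO+Dnmt3b1 to DKO+Dnmt3a1.

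Tet2 had 15.4 RPKM in TKO and 9.32 RPKM in DKO, against 20.7 RPKM in WT. The TKO add-back libraries had 14.6 and 16.2 RPKM (Dnmt3a1), 12.5 and 12.4 RPKM (Dnmt3a2) and 10.7 RPKM (Dnmt3b1). The DKO add-back libraries had 16.7 RPKM (Dnmt3a1), 18.5 RPKM (Dnmt3a2) and 12.4 RPKM (Dnmt3b1). WT was the highest and DKO the lowest of the 11, so that all 10 knockout-derived libraries lay below WT, as was the case for 10.2% of genes tested. In the order of the 9 groups, 4 of 8 neighbouring steps exceeded the wider replicate gap of 0.15 on the log2 scale. Among them were that between DKO and TKO+Dnmt3b1 and that between DKO+Dnmt3a2 and WT. The other replicate gap was 0.01, and groups with 1 library have no gap of their own. Such steps were not counted over all genes. In the reference annotation exons of Tet2 overlap exons of the antisense gene Gm42567, and the library kit keeps no strand. The part of Gm42567 in the values of Tet2 was not tested.

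Tet3 was scarce, with 3.88 RPKM in TKO and 1.71 RPKM in DKO, against 1.91 RPKM in WT. The TKO add-back libraries had 1.45 and 2.43 RPKM (Dnmt3a1), 2.63 and 2.22 RPKM (Dnmt3a2) and 3.08 RPKM (Dnmt3b1). The DKO add-back libraries had 2.39 RPKM (Dnmt3a1), 2.10 RPKM (Dnmt3a2) and 2.97 RPKM (Dnmt3b1). TKO was the highest library, and the 2 TKO+Dnmt3a1 libraries were 0.59 apart on the log2 scale, a gap that 0 of 8 neighbouring steps exceeded. These levels correspond to an estimated 350 to 1090 reads per library, or a counting error of 3.0% to 5.3%.

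**Figure D2:**
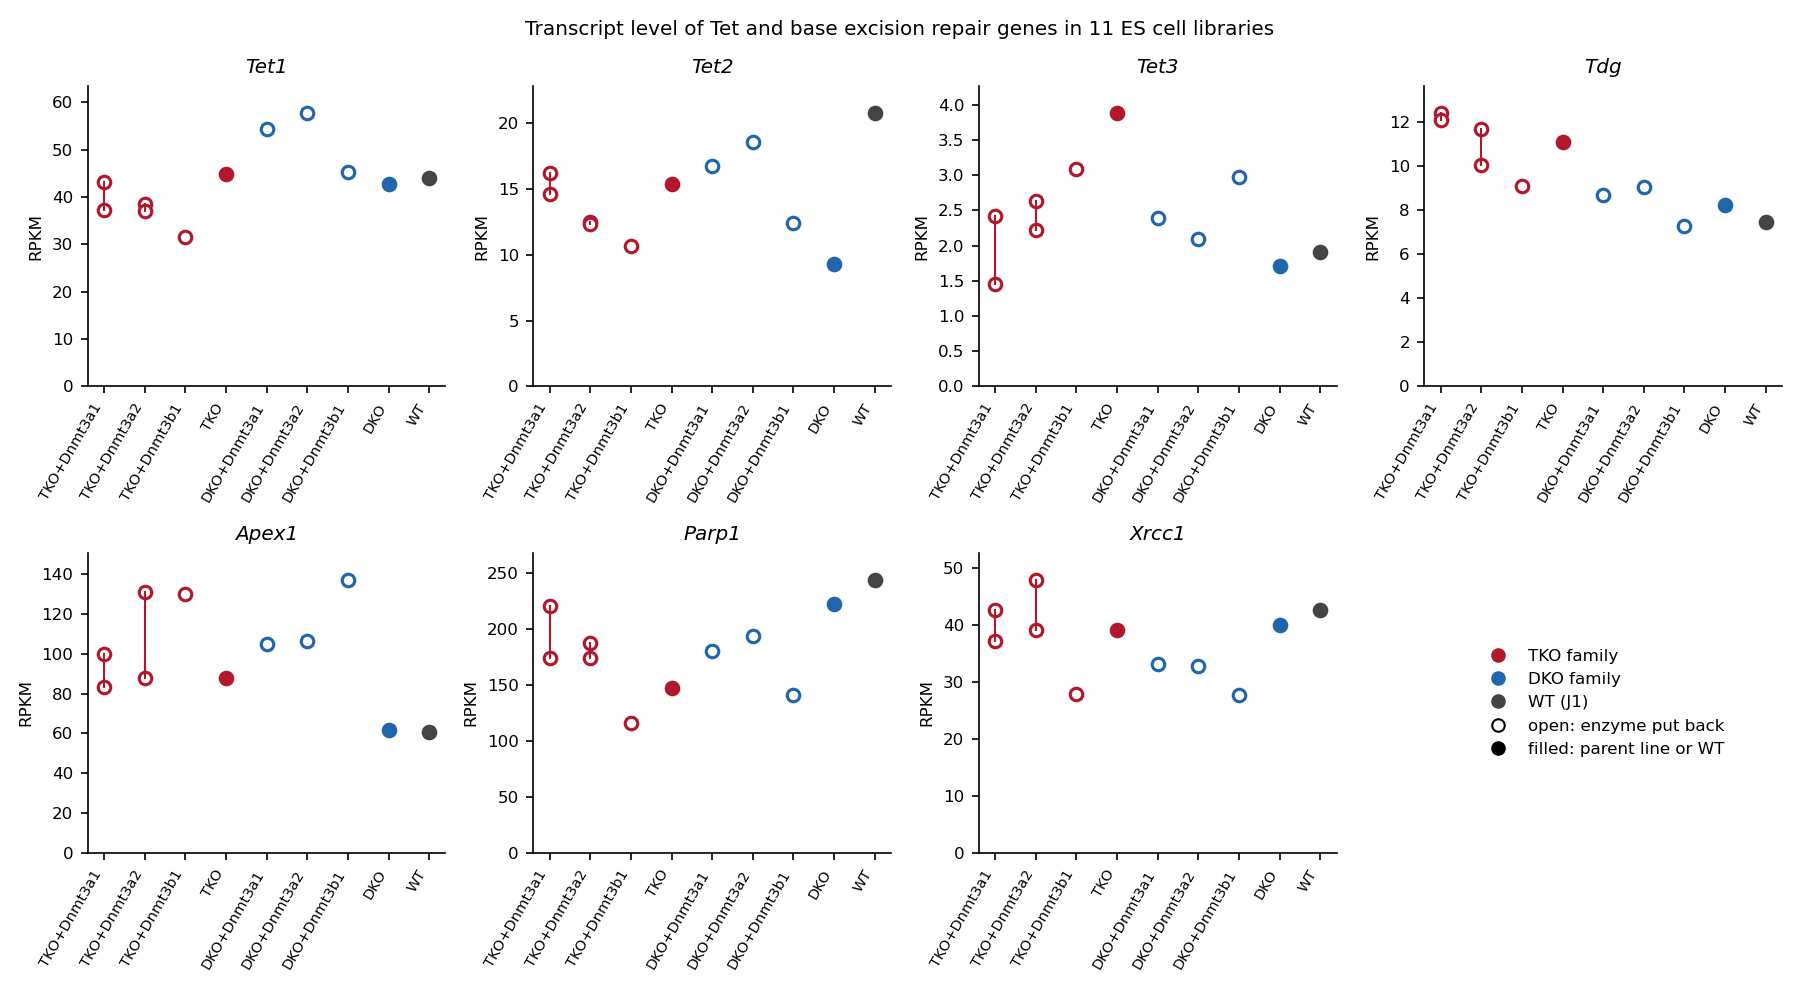
RPKM of each member (y axes, from 0) in the 9 groups (x axes), with 1 point per library and a line joining the 2 libraries of a group. Tet2 is highest in WT at 20.7 RPKM and lowest in DKO at 9.32 RPKM, and Tdg is at 9.11 RPKM or more in the TKO family and at 9.05 RPKM or less in the DKO family.

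Tdg, the glycosylase that removes formylcytosine and carboxylcytosine as well as thymine from G:T mispairs, had 11.1 RPKM in TKO and 8.24 RPKM in DKO, against 7.49 RPKM in WT. In TKO with an enzyme put back it had 12.4 and 12.1 RPKM (Dnmt3a1), 11.7 and 10.04 RPKM (Dnmt3a2) and 9.11 RPKM (Dnmt3b1). In DKO with an enzyme put back it had 8.68 RPKM (Dnmt3a1), 9.05 RPKM (Dnmt3a2) and 7.30 RPKM (Dnmt3b1). The TKO family lay above the DKO family without overlap, as was the case for 6.71% of genes tested. The nearest libraries, TKO+Dnmt3b1 and DKO+Dnmt3a2, were 9.11 and 9.05 RPKM. The level of Tdg is uncertain, since the table lists a processed pseudogene, Gm9855, that is 99.2% identical to Tdg over 1194 bases. The RPKM of Gm9855 was 1.04 to 1.08 times that of Tdg in every library, and how reads were divided between copies is not given in the sources used here.

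Apex1, the main endonuclease at abasic sites, had 87.8 RPKM in TKO and 61.6 RPKM in DKO, against 60.8 RPKM in WT. In TKO with an enzyme put back it had 99.7 and 83.1 RPKM (Dnmt3a1), 130.9 and 87.6 RPKM (Dnmt3a2) and 129.9 RPKM (Dnmt3b1). In DKO with an enzyme put back it had 104.7 RPKM (Dnmt3a1), 106.4 RPKM (Dnmt3a2) and 137.1 RPKM (Dnmt3b1). All 10 knockout-derived libraries lay above WT, as was the case for 14.2% of genes tested, though DKO was above it by under 1 RPKM. The 2 TKO+Dnmt3a2 libraries spanned most of the range of the TKO family. In the reference annotation exons of Apex1 overlap exons of Tmem55b on the other strand, and the library kit keeps no strand. Tmem55b lay between 46.9 and 64.5 RPKM.

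Parp1, the abundant sensor of single-strand breaks, had 147.7 RPKM in TKO and 222 RPKM in DKO, against 244 RPKM in WT. In TKO with an enzyme put back it had 221 and 174 RPKM (Dnmt3a1), 188 and 174 RPKM (Dnmt3a2) and 116 RPKM (Dnmt3b1). In DKO with an enzyme put back it had 180.3 RPKM (Dnmt3a1), 194 RPKM (Dnmt3a2) and 141 RPKM (Dnmt3b1). WT was the highest library and the Dnmt3b1 libraries were the lowest, and all 10 knockout-derived libraries lay below WT, as for 10.2% of genes tested. Parp1 had the highest RPKM of the 7 members in 10 of 11 libraries, the exception being TKO+Dnmt3b1, where Apex1 was above it.

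Xrcc1, the scaffold of single-strand break repair, had 39.1 RPKM in TKO and 40.1 RPKM in DKO, against 42.7 RPKM in WT. In TKO with an enzyme put back it had 42.7 and 37.2 RPKM (Dnmt3a1), 39.1 and 48.0 RPKM (Dnmt3a2) and 27.9 RPKM (Dnmt3b1). In DKO with an enzyme put back it had 33.2 RPKM (Dnmt3a1), 32.8 RPKM (Dnmt3a2) and 27.7 RPKM (Dnmt3b1). The Dnmt3b1 libraries were the lowest of the 11, as for Parp1. Both lay below the 6 Dnmt3a isoform libraries in 15.3% of genes tested, and the share below all other libraries was not counted. Of the 8 neighbouring steps, 0 exceeded the wider replicate gap of Xrcc1, of Parp1 or of Apex1.

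The TKO family was set against the DKO family at matched add-back. The families differ in Dnmt1, but also in parent line and in Uba1y, and these differences cannot be told apart. Tdg was higher in the TKO family and Tet1 lower, and the other 5 members did not pass the test. The libraries of a family are those of a parent line and of lines made from it, not replicates of 1 condition. Tdg averaged 11.1 ± 1.28 RPKM in the TKO family (SD, n = 6 libraries) and 8.32 ± 0.754 RPKM in the DKO family (SD, n = 4 libraries). Its log2 difference was 0.36 ± 0.10 (SE), with an adjusted p = 0.0313 by limma with Benjamini-Hochberg adjustment over all genes tested, and all 6 libraries were above all 4. Tet1 averaged 38.7 ± 4.79 RPKM in the TKO family (SD, n = 6 libraries) and 49.98 ± 7.12 RPKM in the DKO family (SD, n = 4 libraries). Its log2 difference was -0.39 ± 0.11 (SE; limma, adjusted p = 0.0415), and the families overlapped, with 4 of 6 TKO family libraries below all 4 DKO family libraries. In the parent lines themselves Tet1 was not lower without Dnmt1, at 44.9 RPKM in TKO and 42.7 RPKM in DKO. The lower family mean came from the add-back libraries.

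The 2 called members stand against a background of 21% of genes called in this comparison, 14.4% higher and 6.66% lower, and 6.71% of genes tested had every TKO family library above every DKO family library. The median log2 difference of the 7 members was 0.04, and that of all genes tested was 0.11. The call of Tdg was lost when the values were rescaled (limma adjusted p = 0.128 after quantile normalization, 0.102 after median ratio scaling and 0.109 with chromosome medians subtracted) and when any 1 library other than replicate 2 of TKO+Dnmt3a2 was left out (0.0519 to 0.127). The call of Tet1 was lost without any 1 library other than TKO or DKO (adjusted p = 0.0641 to 0.209), and without both Dnmt3b1 libraries neither was called (0.119 for Tet1 and 0.0729 for Tdg). Tet1 and Tdg both lie on chromosome 10, where the median log2 difference over 668 genes was 0.09. All 20 fibroblast markers were higher in the TKO family, 0 of them called, with a median log2 difference of 0.65. Of the 10 ES cell markers, 1 was called higher and 3 lower. Whether these markers bear on the values of Tdg and Tet1 was not tested.

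Dnmt3b1 add-back was set against Dnmt3a1 and Dnmt3a2 add-back, across both families. Parp1 was lower with Dnmt3b1, at 116 RPKM in TKO and 141 RPKM in DKO, against 174 to 221 RPKM in the 6 Dnmt3a isoform libraries. Its log2 difference was -0.58 ± 0.16 (SE; limma, adjusted p = 0.0331), 1 of 7 members called where 20.7% of all genes were called, 13.5% higher and 7.17% lower. Xrcc1 also lay below all 6 libraries, at 27.9 and 27.7 RPKM against 32.8 to 48.0 RPKM, and Tet3 lay above all 6, at 3.08 and 2.97 RPKM against 1.45 to 2.63 RPKM, neither of them past the test. Over all genes tested, 15.3% lay below and 19.3% lay above in every such pair. The median log2 difference was -0.29 over the 7 members and 0.01 over all genes tested, with 5 members lower and 2 higher.

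In these same libraries 20 of 20 fibroblast markers were called higher (median log2 difference 2.49), as were 12 of the 14 macrophage markers tested, and 5 of 10 ES cell markers were called lower, with all 10 below. In DKO+Dnmt3a2, where the fibroblast and macrophage markers were lowest, Parp1 was at 194 RPKM and Xrcc1 at 32.8 RPKM. The part of these markers in the values of Parp1 and Xrcc1 was not tested. Without TKO+Dnmt3b1 the log2 difference of Parp1 was -0.51 (limma, adjusted p = 0.346) and without DKO+Dnmt3b1 it was -0.64 (adjusted p = 0.142). The call was also lost without DKO+Dnmt3a2 (0.0632), without replicate 2 of TKO+Dnmt3a1 (0.0561) or of TKO+Dnmt3a2 (0.0521), and with genes at low values kept in the test (0.0533).

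**Figure D3:**
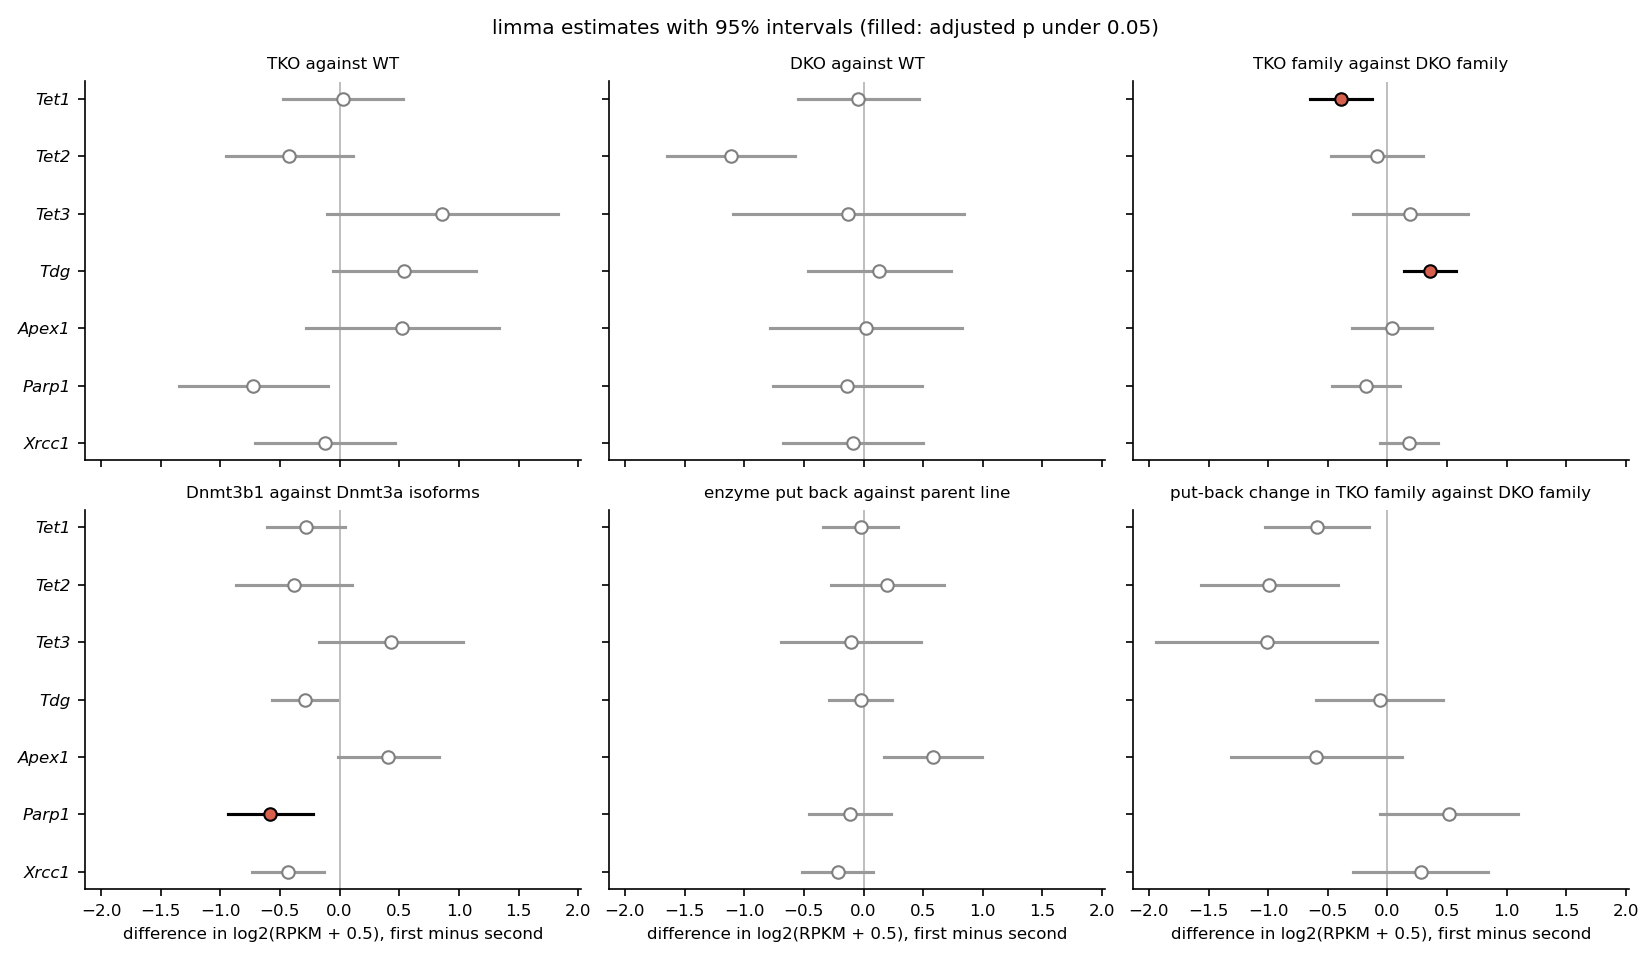
Estimated difference in log2(RPKM + 0.5) of each member (x axis, with 95% intervals as bars) in 6 comparisons, filled where the limma adjusted p was under 0.05. Tdg at 0.36 and Tet1 at -0.39 in the TKO family against the DKO family, and Parp1 at -0.58 with Dnmt3b1 against the Dnmt3a isoforms, are the filled points.

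Put-back of any enzyme was set against the parent line over both families. None of the 7 members passed the test, where 3.93% of all genes tested did (1.12% higher and 2.81% lower), and 1 of the 7 was below an unadjusted p of 0.05. That one was Apex1, at 83.1 to 137.1 RPKM (median 105.5 RPKM) in the 8 add-back libraries, against 87.8 RPKM in TKO and 61.6 RPKM in DKO. Its log2 difference was 0.58 ± 0.18 (SE; limma, adjusted p = 0.0885), and 6 of 8 add-back libraries lay above both parents. Without the DKO library the difference was 0.30, and without the TKO library it was 0.90.

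Line by line, the Tet genes mostly stood on opposite sides of the parent in the 2 families. Against its own parent, Tet1 was lower in 5 of 5 TKO add-back libraries, by 0.06 to 0.51 on the log2 scale, and higher in 3 of 3 DKO add-back libraries, by 0.08 to 0.43. Tet3 was likewise below TKO in 5 of 5 and above DKO in 3 of 3, and Tet2 was below TKO in 4 of 5 and above DKO in 3 of 3. Over all genes tested, 20.6% lay below TKO in all 5 TKO add-back libraries and 31.9% lay above DKO in all 3 DKO add-back libraries, each against a single parent library. Both held together, as for Tet1 and Tet3, in 3.8% of genes tested, and the opposite pattern in 3.16%. Parp1 had the other pattern, above TKO in 4 of 5 TKO add-back libraries, with TKO+Dnmt3b1 the exception, and below DKO in 3 of 3, as was Xrcc1, where 37.6% of genes tested lay below DKO in all 3.

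The difference between the families in the put-back change was tested as an interaction, in which 0 of 14229 genes (0%) and 0 of 7 members passed, with 2079 genes and 3 members below an unadjusted p of 0.05. The estimates, put-back change in the TKO family minus that in the DKO family, were -0.99 ± 0.25 for Tet2 (limma, adjusted p = 0.221), -1.01 ± 0.40 for Tet3 (adjusted p = 0.319) and -0.59 ± 0.19 for Tet1 (adjusted p = 0.267). Those for Apex1 and Parp1 were -0.60 ± 0.31 (adjusted p = 0.408) and 0.52 ± 0.25 (adjusted p = 0.385), all with SE. The median was -0.59 over the 7 members and 0.02 over all genes tested. Tet3 lies on chromosome 6, where the median over 653 genes was -0.36, and with chromosome medians subtracted its estimate was -0.65.

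**Figure D4:**
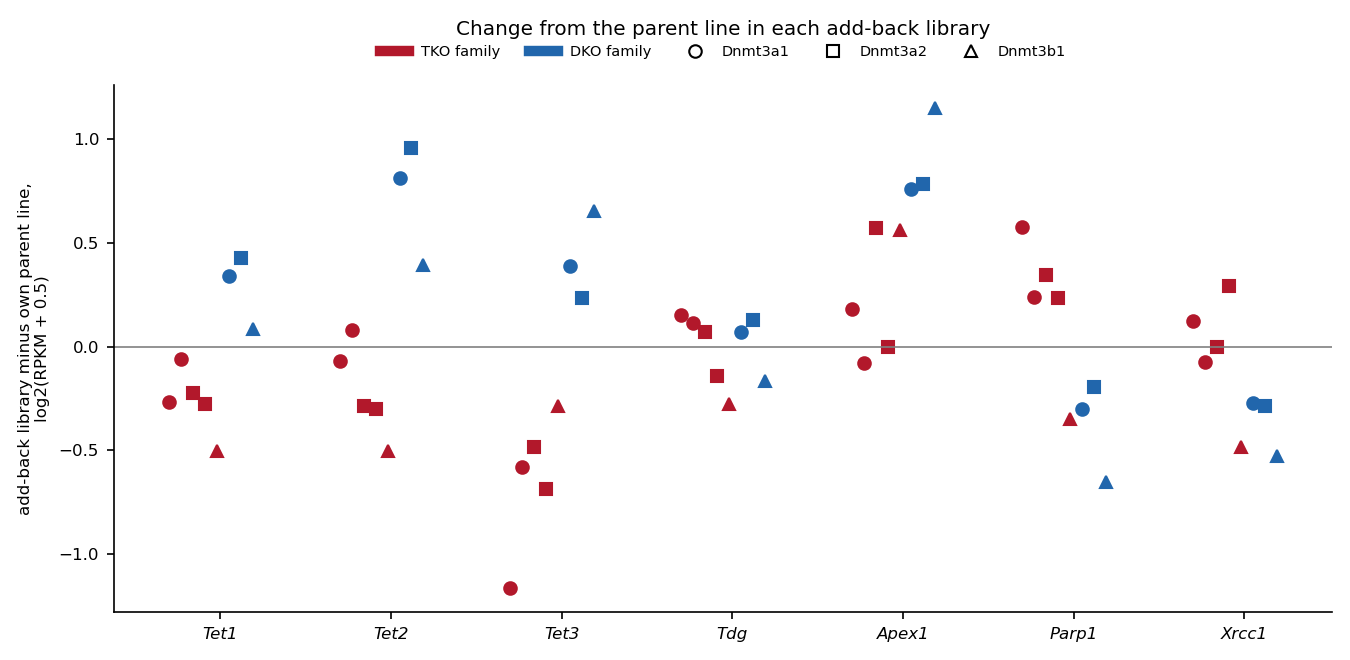
Change of each member from its own parent line in the 8 add-back libraries, as a difference in log2(RPKM + 0.5) (y axis), with colour for the family and marker shape for the enzyme put back. For Tet1 and Tet3 the 5 TKO family points lie below 0 and the 3 DKO family points lie above 0.

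TKO and DKO were each set against WT, which asks how the members stand without the enzymes. None of the 7 members passed in either comparison. In TKO against WT 49 genes (0.344%) were called, 2447 were below an unadjusted p of 0.05, and with 1 library in each arm the spread was taken from the replicated lines. Tet3 was at 3.88 RPKM in TKO and 1.91 RPKM in WT, a log2 difference of 0.86 ± 0.39 (SE; limma, adjusted p = 0.334). Tdg differed by 0.54 ± 0.24 (adjusted p = 0.328), Apex1 by 0.53 ± 0.33 (adjusted p = 0.447) and Parp1 by -0.72 ± 0.25 (adjusted p = 0.242), all with SE. Genes on chromosome 6 had a median log2 difference of 0.48 between TKO and WT, and with chromosome medians subtracted the difference of Tet3 was 0.21. The 7 members had a median of 0.03 and all genes tested 0.13.

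In DKO against WT 0 genes (0%) were called by limma and 1181 were below an unadjusted p of 0.05, with 71 called when genes at low values were kept. Tet2 was at 9.32 RPKM in DKO and 20.7 RPKM in WT, a log2 difference of -1.11 ± 0.22 (SE; limma, unadjusted p = 0.00247, adjusted p = 0.303), rank 115 of 14229 by p. No other member differed by 0.5 or more in size. With Dnmt3a1 or Dnmt3a2 put back into DKO, Tet2 was at 16.7 and 18.5 RPKM, and with Dnmt3b1 at 12.4 RPKM, each with 1 library and no test of its own.

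TKO+Dnmt3a1 and TKO+Dnmt3a2, the pair with 2 libraries on each side, compare the long and the short isoform. Of 14229 genes 1 (0.00703%) was called, and 0 of 7 members, with 611 genes and 0 members below an unadjusted p of 0.05. Tet2 was at 14.6 and 16.2 RPKM with Dnmt3a1 and at 12.5 and 12.4 RPKM with Dnmt3a2, without overlap, and Tdg was at 12.4 and 12.1 RPKM with Dnmt3a1 and at 11.7 and 10.04 RPKM with Dnmt3a2. Over all genes tested 11.7% had both Dnmt3a1 libraries above both Dnmt3a2 libraries. The 95% interval of the log2 difference ran from -0.08 to 0.68 for Tet2 and from -0.25 to 0.60 for Tdg.

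Among the 10 DNA glycosylases other than Tdg, 1 was called in each of the comparisons over families, enzymes and put-back, where 21%, 20.7% and 3.93% of all genes tested were called. Ung, which removes uracil, was higher in the TKO family, at 60.03 to 71.1 RPKM against 38.4 to 54.0 RPKM in the DKO family (log2 difference 0.57 ± 0.10 SE; limma, adjusted p = 0.00902). Neil2, which removes oxidised bases, was lower with Dnmt3b1, at 1.26 and 2.05 RPKM against 4.12 to 9.02 RPKM with the Dnmt3a isoforms (log2 difference -1.57 ± 0.31; adjusted p = 0.0111). Neil3, of the same family, was lower with an enzyme put back, at 2.33 to 5.36 RPKM in the 8 add-back libraries, against 6.25 RPKM in TKO and 10.6 RPKM in DKO (log2 difference -1.07 ± 0.22; adjusted p = 0.0442). The groups did not overlap for these 3 genes. Among all genes tested, 6.71% had every TKO family library above every DKO family library, 15.3% had both Dnmt3b1 libraries below the 6 Dnmt3a isoform libraries, and 6.21% had all 8 add-back libraries below both parents. The calls of single genes in this list and those that follow were not followed under other settings. Genes called with put-back fell from 559 to 2 without DKO+Dnmt3a1 and to 2 without DKO+Dnmt3a2. They numbered 3 without replicate 2 of TKO+Dnmt3a1 and 820 without replicate 2 of TKO+Dnmt3a2. By summed RPKM, fibroblast and macrophage markers were highest, and ES cell markers lowest, in the same 2 Dnmt3b1 libraries. By mean log2 value, ES cell markers were at 7.11 in TKO+Dnmt3b1, 7.49 in TKO and 7.53 in DKO+Dnmt3b1. The part of these markers in the Dnmt3b1 differences of this list and of those that follow was not tested. The list's median log2 difference was 0.19 between families and -0.22 with Dnmt3b1, where all genes tested had 0.11 and 0.01, and it was -0.21 with an enzyme put back, where all genes had -0.01. Ung and Nthl1, which cuts oxidised pyrimidines, were the most abundant, Nthl1 at 12.6 to 20.8 RPKM. Against WT, where 0 of the list were called, Ogg1 (8-oxoguanine glycosylase) was at 11.3 RPKM in TKO and 5.94 RPKM in WT, and Neil2 at 3.64 RPKM in TKO and 8.54 RPKM in WT. Ogg1 lies on chromosome 6, where the median log2 difference between TKO and WT was 0.48 over 653 genes. Mbd4, which like Tdg acts on G:T mispairs, was at 7.62 RPKM in DKO and 12.1 RPKM in WT, and Ung was at 54.0 RPKM in DKO and 43.2 RPKM in WT.

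Of 11 genes of strand-break processing, gap filling and ligation, 0 were called higher and 2 lower in the TKO family against the DKO family, where 14.4% of all genes tested were called higher and 6.66% lower. Parp2, a relative of Parp1, was at 17.3 to 26.4 RPKM in the TKO family and 24.6 to 34.5 RPKM in the DKO family (log2 difference -0.41 ± 0.09 SE; limma, adjusted p = 0.0166). Pcna, the sliding clamp of replication, was lower by 0.25 ± 0.08 (adjusted p = 0.0473), with overlap. Parp2 was also lower with Dnmt3b1 than with the Dnmt3a isoforms (-0.47 ± 0.11; adjusted p = 0.0237), 1 of 11 where 7.17% of all genes were called lower, and 0 of 11 were called with an enzyme put back. The list's medians were -0.095 between families and -0.04 with Dnmt3b1. Pcna and Lig1, the ligase of replication, were the most abundant of the list, Pcna at 105.0 to 160.5 RPKM and Lig1 at 76.9 to 130.9 RPKM. Against WT, with 0 of 11 called, Parp2 was at 20.5 RPKM in TKO and 25.3 RPKM in DKO, against 38.7 RPKM in WT. Lig3, the ligase that partners Xrcc1, was at 24.2 RPKM in TKO and 16.9 RPKM in DKO, against 12.8 RPKM in WT.

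Of 6 partners and regulators of Tet enzymes, 5 were tested, and 2 were called higher and 1 lower in the TKO family against the DKO family, against 14.4% and 6.66% of all genes tested. Gadd45a, a stress-induced protein linked to demethylation, was at 44.6 to 78.9 RPKM in the TKO family and 25.4 to 39.6 RPKM in the DKO family, without overlap, a separation that 6.71% of all genes tested had in this direction (log2 difference 0.66 ± 0.19 SE; limma, adjusted p = 0.0385). Gadd45b, of the same family, was at 33.5 to 74.1 RPKM in the TKO family and 18.3 to 35.9 RPKM in the DKO family (0.97 ± 0.23; adjusted p = 0.0228). Cxxc5, a CXXC-domain protein that binds unmethylated CG, was lower in the TKO family (-0.38 ± 0.08; adjusted p = 0.0162) and lower with Dnmt3b1 than with the Dnmt3a isoforms (-0.45 ± 0.10; adjusted p = 0.0194). Ogt, which adds N-acetylglucosamine to proteins and binds Tet enzymes, was at 28.3 and 29.4 RPKM with Dnmt3b1 and 34.2 to 42.5 RPKM with the Dnmt3a isoforms (-0.39 ± 0.10; adjusted p = 0.0297). With Dnmt3b1 2 of 5 were called lower, where 7.17% of all genes tested were. Both Dnmt3b1 libraries lay below the 6 Dnmt3a isoform libraries in 15.3% of genes tested. The list's medians were 0.66 between families and -0.39 with Dnmt3b1. Against WT 0 of 5 were called: Gadd45a was at 78.9 RPKM in TKO and 37.4 RPKM in WT, Cxxc5 at 16.1 RPKM in TKO and 28.1 RPKM in WT, and Gadd45g at 14.8 RPKM in DKO and 29.8 RPKM in WT. All 5 were lower in DKO than in WT, Ogt by the least, at 38.2 and 39.2 RPKM. Gadd45a lies on chromosome 6, with its raised median in TKO.

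Tet enzymes use 2-oxoglutarate, and of 13 genes that make it or handle its competitors 2 were called higher in the TKO family, 1 lower with Dnmt3b1 and 1 lower with an enzyme put back. The shares of all genes tested were 14.4%, 7.17% and 2.81%. D2hgdh, which clears D-2-hydroxyglutarate, an inhibitor of Tet enzymes, was at 3.60 to 4.65 RPKM in the TKO family and 1.25 to 1.76 RPKM in the DKO family (log2 difference 1.21 ± 0.14 SE; limma, adjusted p = 0.00154). Idh1, the cytosolic enzyme that makes 2-oxoglutarate, was lower with an enzyme put back, at 22.5 to 47.6 RPKM in the 8 add-back libraries, against 71.8 RPKM in TKO and 77.0 RPKM in DKO (-1.23 ± 0.17; adjusted p = 0.0279). Neither of these pairs of groups overlapped, where 6.71% of all genes tested lay above in the first comparison and 6.21% lay below in the second. Idh1 was also higher in the TKO family than in the DKO family at matched add-back (0.51 ± 0.14; adjusted p = 0.0335), with overlap. Sdhc, a subunit of succinate dehydrogenase, was at 67.9 and 77.8 RPKM with Dnmt3b1 and 89.1 to 101.0 RPKM with the Dnmt3a isoforms (-0.39 ± 0.11; adjusted p = 0.0393). With Dnmt3b1 all 13 genes of the list were lower, with a median of -0.26, and the other 12 did not pass. All genes tested had a median of 0.01 there. In these 2 libraries the fibroblast markers summed to 2757 and 2101 RPKM, against at most 1086 RPKM in any other library, and all 10 ES cell markers were below, 5 of them called. The list's medians were 0.06 between families and -0.18 with an enzyme put back. Sdhc and Sdha were the most abundant, Sdha at 68.6 to 94.5 RPKM. Against WT 0 of 13 were called: D2hgdh was at 3.96 RPKM in TKO and 1.61 RPKM in WT, Sdhb at 64.9 RPKM in TKO and 98.5 RPKM in WT, Idh1 at 77.0 RPKM in DKO and 38.7 RPKM in WT, and Idh3g at 53.9 RPKM in DKO and 68.2 RPKM in WT.

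Cytidine deaminases have been proposed to feed base excision repair by turning methylcytosine into thymine, and 3 of 4 on the list were tested. Between families 2 of these 3 were called higher, where 14.4% of all genes tested were, and with Dnmt3b1 1 of 3, where 13.5% were. Apobec1, an mRNA-editing deaminase, was higher in the TKO family, at 3.997 to 9.40 RPKM against 2.65 to 8.36 RPKM in the DKO family (log2 difference 0.67 ± 0.17 SE; limma, adjusted p = 0.0294). It was also higher with Dnmt3b1, at 9.40 and 8.36 RPKM against 2.65 to 6.52 RPKM with the Dnmt3a isoforms (1.07 ± 0.22; adjusted p = 0.0127), in the libraries with the highest macrophage and fibroblast markers. Apobec1 lies on chromosome 6, where the median log2 difference between the families was 0.16 over 653 genes. Apobec2 was higher in the TKO family, at 2.77 to 6.46 RPKM against 1.48 to 5.16 RPKM in the DKO family (0.81 ± 0.23; adjusted p = 0.0403). The list's medians were 0.67 between families and 0.45 with Dnmt3b1. Apobec3 was the most abundant, at 36.4 to 70.9 RPKM. Against WT 0 of 3 were called: Apobec2 was at 5.82 RPKM in TKO and 5.16 RPKM in DKO, against 1.501 RPKM in WT, and Apobec3 at 54.2 RPKM in TKO and 43.0 RPKM in DKO, against 70.1 RPKM in WT. Between TKO+Dnmt3a1 and TKO+Dnmt3a2, and in the interaction, 0 genes of these 5 lists were called.

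**Figure D5:**
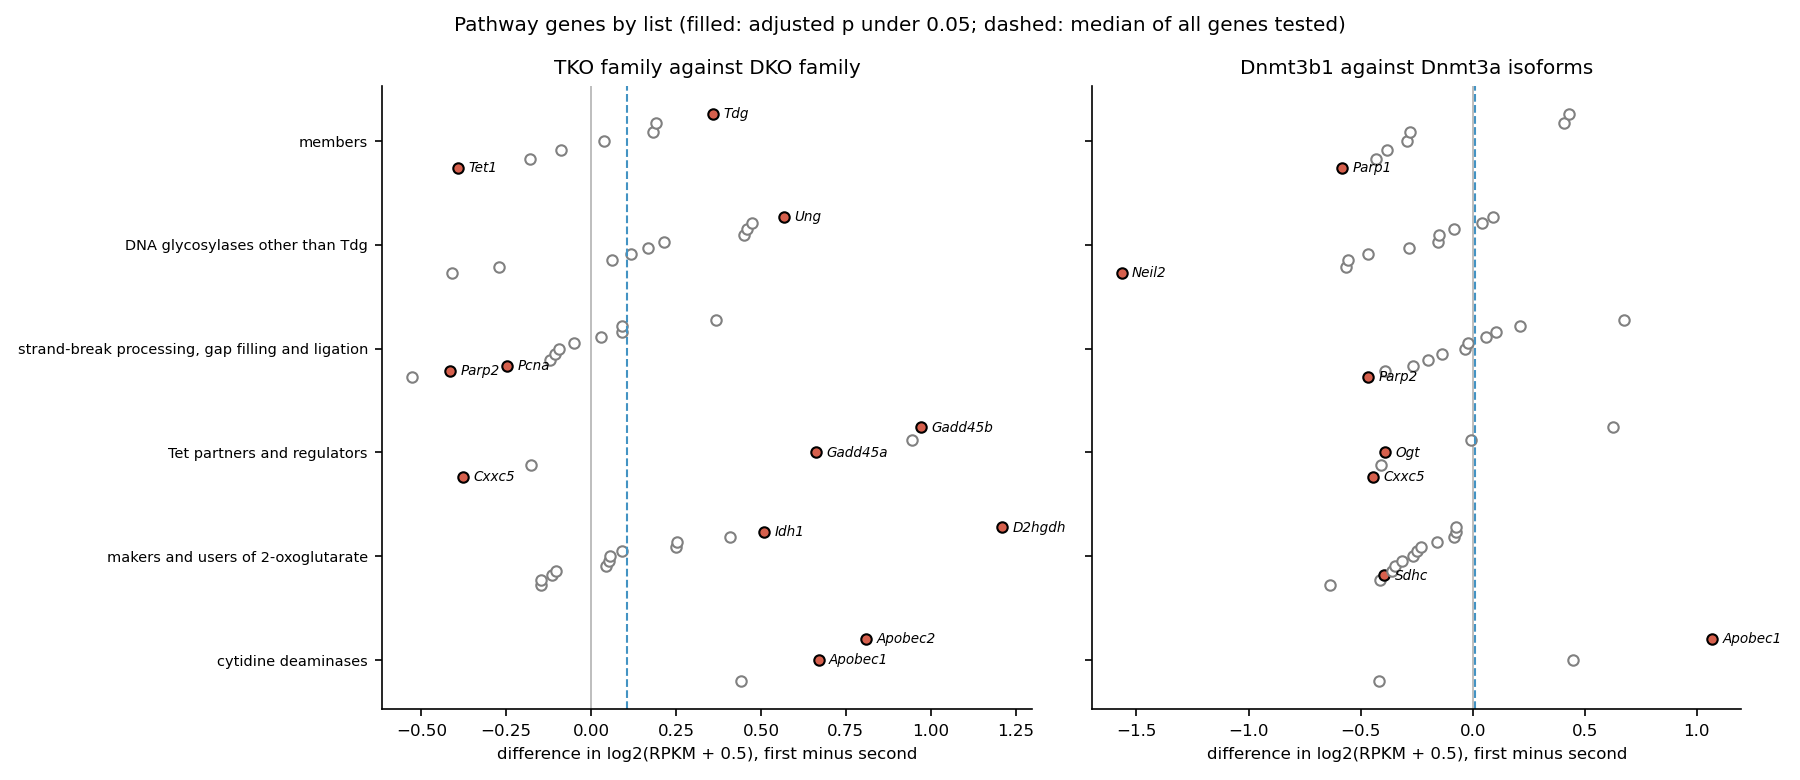
Difference in log2(RPKM + 0.5) of the members and of the 5 pathway lists (rows) in 2 comparisons (x axes), 1 point per gene, filled and named where the limma adjusted p was under 0.05, with a dashed line at the median of all genes tested. D2hgdh at 1.21 lies farthest right in the left panel, and Neil2 at -1.57 farthest left in the right panel.

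Over the 11 libraries the members did not share 1 pattern. Pearson's r of log2(RPKM + 0.5) between members, as a description of libraries that share lines and parents, ran from -0.83 (Tet3 with Parp1) to 0.67 (Parp1 with Xrcc1). It was 0.59 between Tet1 and Tet2, -0.65 between Apex1 and both Parp1 and Xrcc1, and -0.31 between Tet1 and Tdg. The tested genes closest to Tet1 were Ddx1, Pds5b and Gins4 (r = 0.95 each), and those closest to Tet2 were Clgn (0.91), Cbx5 and Tipin (0.87 each). For Tet3 they were Tax1bp1 (0.94) and Tex261 (0.93), both on chromosome 6 like Tet3, and Tceal1 (0.92). For Tdg they were its copy Gm9855 (0.999), Nfatc2ip and Tfap2c (0.95 each), and for Apex1 they were Sntb1, Aar2 and Gtf3c6 (0.98 each). For Parp1 they were Oxa1l (0.97), Tpx2 (0.96) and the microRNA gene Mir6904 (0.96), which lies within an exon of Parp1, and for Xrcc1 they were Gtpbp2 (0.98), Iqgap3 and Abhd14a (0.97 each).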

How the data were processed

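RNA-seq of 11 libraries in 9 groups was used as deposited. The submitters' processing notes name bcl2fastq 1.8.4, STAR 2.4.0 and the genome build mm9, and the authors deposited RPKM for 24016 genes with 1 RefSeq transcript each. The counting tool, gene lengths, strand setting and treatment of duplicates are not given in the sources used here. The TruSeq RNA v2 kit named in the labels' protocols keeps no strand, so overlapping genes share reads. RPKM summed to 380927 to 422189 per library, 3140 genes were at 0 in every library, and 0 columns belonged to no sample. Depth was estimated from the spacing of RPKM values of transcripts of up to 400 nt, at which 96.6% to 98.9% of values of up to 5 reads came out whole within 0.05, against a median of at most 1.8% at other totals.

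Values were taken as log2(RPKM + 0.5), which understates the change of low genes, and tests covered the 14229 genes that reached 1 RPKM in any library. Since RPKM are not counts, no count test was run. R 4.3.3 with limma 3.58.1 (lmFit, then eBayes with a trend) fitted the models, with Benjamini-Hochberg adjustment over all genes tested and calls at an adjusted p under 0.05. TKO and DKO against WT and TKO+Dnmt3a1 against TKO+Dnmt3a2 came from 9 group means over 11 libraries (2 residual degrees of freedom, prior 3.7). The family, enzyme and put-back comparisons came from an additive fit of the 10 libraries other than WT (5 residual degrees of freedom, prior 3.79), and the interaction from the same fit with 1 more term (4 residual degrees of freedom). Groups with 1 library were assumed to vary like the others. The fit was tested on simulated data with changes larger than those of the members. That test cannot show whether changes of the size seen in the members are found.

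The members, lists and markers were chosen with earlier results of these data known. A member's log2 change was printed where it was called or 0.5 or more in size. Of the pathway lists, genes were named where called, where they had the largest rise or fall against WT, or where they were among the 2 highest by mean RPKM, and for each member the 3 genes of highest correlation were named. For 1 gene of the strand-break list the result is not reported here, and the list was counted without it. Alternatives were pseudocounts of 0.1 and 1, no filter, quantile normalization, median ratio scaling, chromosome medians subtracted, a replicate block, and leaving out libraries. Members and counts of genes called were followed under these alternatives, and single genes of the pathway lists were not. Members were matched to RefSeq promoters by symbol.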

Additional observations from a re-analysis of the deposited data

Results flagged for a closer look

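In 2 members every add-back library of one family moved opposite to every add-back library of the other, relative to the parent lines. Among all genes tested 3.8% were below TKO in all 5 and above DKO in all 3, as these 2 were, and 3.16% had the opposite pattern. For Tet1, 5 of 5 TKO add-back libraries were below TKO and 3 of 3 DKO add-back libraries were above DKO, and the put-back change in the TKO family minus that in the DKO family was -0.59 on the log2 scale. For Tet3 the same counts held and the difference was -1.01. On chromosome 6, where Tet3 lies, the median over 653 genes was -0.36, and with chromosome medians subtracted the estimate of Tet3 was -0.65. The difference itself was tested as an interaction with limma and passed for neither gene (adjusted p = 0.267 for Tet1 and 0.319 for Tet3), over a range of 0.223 to 0.458 for Tet1 and 0.245 to 0.504 for Tet3 in 16 other settings. Each parent line is 1 library, so that 1 value sets the direction of all its add-back libraries. Dixon's test was run on 14 sets (7 members in 2 families, with 6 libraries in the TKO family and 4 in the DKO family) and marked 0 libraries, which at these sizes does not show that the libraries of a family are alike.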

How the results depend on the processing

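Of 206 recomputed member changes (14 changes, up to 18 settings each), 174 kept their direction and their side of the threshold, 31 kept the direction and lost the call, 1 gained a call and 0 turned direction. The 31 were all of Tdg and Tet1 between families (13 and 11 of 18 settings) and Parp1 with Dnmt3b1 (7 of 17). Genes called, then members called, were as follows. In TKO against WT, 49 genes became 0 with quantile normalization, 12 with median ratio scaling, 116 with chromosome medians subtracted and 307 with the replicate block, and 0 with any replicate left out. In DKO against WT, 0 genes became 71 without the filter and 60 with the replicate block. Between TKO+Dnmt3a1 and TKO+Dnmt3a2, 1 gene became 0 with a pseudocount of 0.1, without the filter, with quantile normalization, with median ratio scaling and with any replicate left out, 3 with chromosome medians subtracted and 6 with the replicate block. For put-back against parent, 559 genes became 173 without the filter, 309 with chromosome medians subtracted, 1415 with the replicate block (1 member, Apex1) and 3 without both Dnmt3b1 libraries, and 0 (without DKO) to 867 (without TKO) with 1 library left out. Between families, 2990 genes became 1689 with the replicate block, 1794 without both Dnmt3b1 libraries and 651 (without DKO+Dnmt3a2) to 3245 with 1 left out. The 2 members became 1 without the filter, under each of the 3 rescalings and with the replicate block, 0 without both Dnmt3b1 libraries, and 0 to 1 with 1 left out. With Dnmt3b1 against Dnmt3a, 2943 genes became 77 (without TKO+Dnmt3b1) to 3338 with 1 left out, and 179 without DKO+Dnmt3b1. The 1 member became 2 (Xrcc1 added) under each of the 3 rescalings, 0 without the filter or with the replicate block, and 0 to 2 with 1 left out. The interaction gave 39 genes without the filter and 0 otherwise, and could not be fitted without TKO or without DKO. Deviations of the 2 same-numbered pairs correlated at 0.086, a value that cannot show whether same-numbered libraries share a culture or batch. Since the labels do not state this either, the replicate block is an alternative with no known pairing behind it. Under it limma gave an adjusted p = 0.0335 for Apex1 with put-back (log2 0.67), 0.0846 for Tet1 and 0.0469 for Tdg between families, and 0.0540 for Parp1 with Dnmt3b1. The share of called genes that were higher moved with scaling: between families it was 68.3%, against 44.8% with quantile normalization, 48.2% with median ratio scaling and 44.9% with chromosome medians subtracted. With Dnmt3b1 it was 65.3%, against 48.2%, 59.7% and 46.0% in the same order, and with put-back 28.4%, against 39.6%, 39.3% and 42.7%. The cause was not tested.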
